A study of Mus musculus with 8 samples.

Results

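The genes described here belong to the glutathione, thioredoxin and NRF2 antioxidant system of the mouse liver. With earlier results of these data known, a list of 41 genes was chosen by name. Of these, 37 could be measured, each through a probe set annotated to that gene alone, out of 22180 such genes on the array. Gsta2 and Prdx1 were left out because each of their 3 probe sets also carried the symbols of other genes, and Prdx5 and Prdx6 were not named in the annotation used here. RNA came from the livers of 8 mice of strain C57BL/6N aged 27 days, 1 array per mouse, and the values are on a log2 scale, so that a difference of 1 is a doubling. The 4 knockout mice had the genotype Albumin-Cretg/wt:Sco1fl/fl, in which Cre recombinase from the albumin promoter, active in hepatocytes, removes floxed Sco1. Sco1 is a mitochondrial copper chaperone needed to build cytochrome c oxidase. The 4 control mice, called wild-type here, were all titled Sco1fl/fl. By genotype label, mice 1 and 3 were Albumin-Cretg/wt:Sco1fl/wt, with Cre and 1 floxed allele, and mice 2 and 4 Albumin-Crewt/wt:Sco1fl/fl, without Cre. For mice 1 and 3 title and label disagree, and the kinds of control compared below follow the label. All 8 mice thus carried at least 1 floxed allele, and no group had unmodified Sco1 on both chromosomes. Cells in which the albumin promoter is silent keep Sco1 in every group.

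NRF2, encoded by Nfe2l2, is a transcription factor that KEAP1 marks for degradation. Electrophiles and oxidants modify KEAP1, NRF2 accumulates, and it induces genes that make and reduce glutathione and thioredoxin or conjugate reactive compounds. The respiratory chain is a source of superoxide, and the comparison addresses how the transcripts of this system stood in livers of the knockout genotype.

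Sco1 was lower on every knockout array (7.48 to 7.72) than on any wild-type array (7.84 to 8.19), a difference of -0.41 ± 0.09 (SE, adjusted p = 0.0633 by limma); which exons its probes read is not known. Array medians lay between 5.79 and 5.89. The Y-linked genes Eif2s3y, Kdm5d and Uty averaged 7.36 in knockout mouse 4 and 8.60 to 8.86 on the 7 other arrays. Hepatocyte markers (8 of 8 measured) averaged 12.65 to 12.72 in knockout and 12.70 to 12.73 in wild-type livers. Markers of lymphocytes (8 of 9 measured) averaged 6.53 to 6.79 in knockout and 6.35 to 6.46 in wild-type livers, and those of endothelial cells (8 of 8) 9.57 to 9.63 and 9.36 to 9.55, so that neither range overlapped between groups. The averages of macrophage (10 of 10 measured, 8.96 to 9.40 in knockout and 8.75 to 9.25 in wild-type), neutrophil, stellate cell, cholangiocyte, erythroid and muscle markers overlapped. Of the macrophage markers 8 of 10 had positive differences and 1, Gpnmb, rose, by 1.23 ± 0.12 (SE, adjusted p = 0.00226 by limma, 0.000859 to 0.0521 over 19 alternative settings). The part of these other cells in the differences below was not tested, and in whole liver RNA fewer cells of a type and less RNA per cell cannot be told apart.

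No gene of the antioxidant system passed the threshold between knockout and wild-type livers. Of the 37 genes none rose and none fell. The lowest adjusted p was 0.122, for Gsta4 (limma, threshold 0.05, Benjamini-Hochberg over all genes tested), while 0.433% of all genes passed as higher and 0.717% as lower. The differences ran from -0.36 for Nqo1 to 0.28 for Gpx3, that is, from 77.7% to 121% of the wild-type level. Negative differences were found for 25 genes and positive ones for 12. The share of negative ones was 67.6%, against 42.8% of all genes and 55.5% of those above the median gene in mean value. The smallest difference of any gene past the threshold was 0.34 in size, so that changes as small as most of those seen here were not called at this number of arrays.

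**Figure D1:**
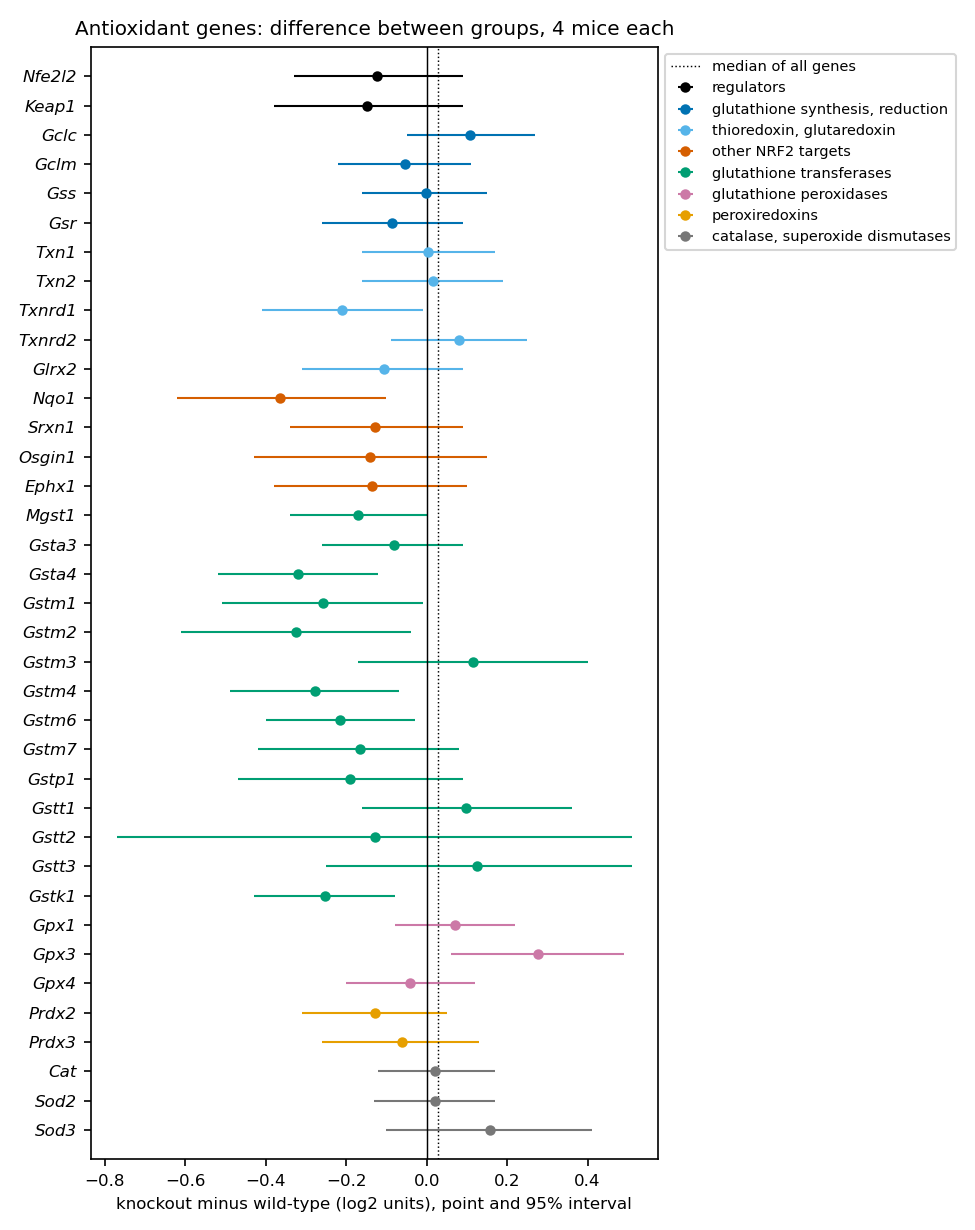
Difference between knockout and wild-type livers for the 37 measured antioxidant genes, in log2 units, with 95% intervals from limma (4 mice per group), coloured by role; the dotted line is the median of all 22180 genes. Most points lie left of 0, the glutathione transferases Gsta4 and Gstm2 and the quinone reductase gene Nqo1 farthest, and Gpx3 farthest to the right.

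The intervals set limits on how far each transcript could have risen. The half-width of the 95% interval, not adjusted for the number of genes, had a median of 0.20 and ran from 0.15 to 0.64. For 31 of the 37 genes the upper bound lay under 0.3, and for 35 under 0.5. The exceptions at 0.5 were Gstt2 and Gstt3, both theta-class glutathione transferases, with upper bounds of 0.51 each. The median upper bound corresponded to 107% of the wild-type level.

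As a whole the list leaned to the lower side. Its median difference was -0.106, beside 0.027 over all genes and -0.022 over the 11090 brighter genes, those above the median gene in mean value, among which all 37 lie. The median was -0.0542 without knockout mouse 3, -0.0651 when the arrays were quantile-normalized again and -0.0688 against Cre-free controls alone. At an unadjusted p under 0.05, 9 genes (24.3%) were lower, against 8.06% of all genes and 13.2% of the brighter ones. On the other side 1 gene (2.70%) was higher, against 8.61% of all and 6.65% of the brighter genes. The count of 9 changed with the arrays and controls used. It was 4 when knockout mouse 2 was left out and also 4 when wild-type mouse 4 was. It was 5 when mouse 1 of each group was left out, and 5 with renewed quantile normalization. Against the 2 controls with Cre alone it was 3, and against the 2 Cre-free controls 1. Fits with fewer arrays also called fewer of all genes after adjustment (limma, threshold 0.05). These were 96 higher and 159 lower with all 8 arrays, 7 and 9 against Cre-free controls, and 4 and 2 against those with Cre. The part of the smaller number of arrays in the lower counts was not tested. The count of 1 higher gene was 3 without knockout mouse 4, 2 with the Y-linked level as a covariate, and 0 both against Cre-free controls and without both mouse 1 arrays. All 4 knockout values lay below all 4 wild-type values for 5 genes, Gsta4, Gstk1, Gstm4, Gstm6 and Mgst1 (13.5%, against 5.49% of all and 9.50% of the brighter genes). All 5 encode glutathione transferases. For Gpx3 alone all 4 lay above (2.70%, against 5.26% of all and 4.45% of the brighter genes).

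**Figure D2:**
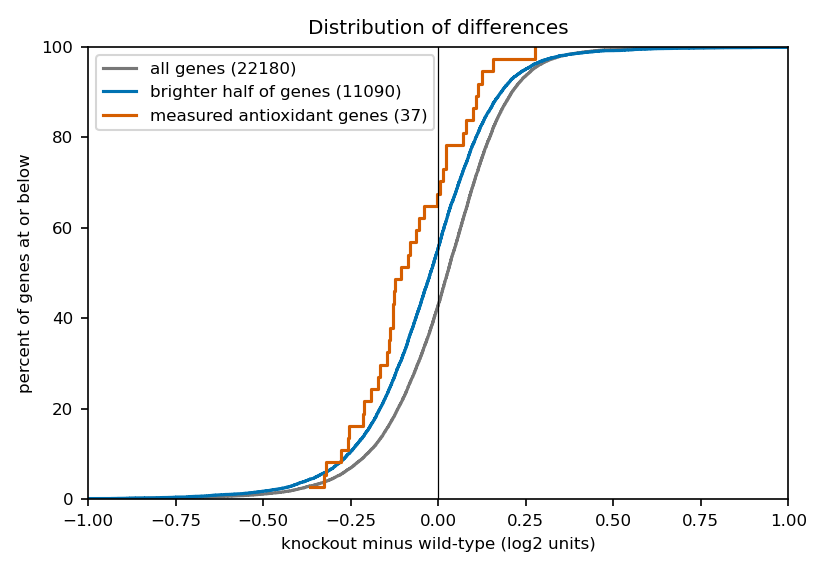
Cumulative distribution of the difference between knockout and wild-type livers (log2 units, axis limited to -1 to 1) for all 22180 genes, for the 11090 brighter genes and for the 37 antioxidant genes. The curve of the antioxidant genes stays left of both others over most of its range, crossing 50% at -0.106 against -0.022 for the brighter genes, and ends at 0.28.

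The knockout mice were close in how many of the genes lay below the control range and differed more in how many lay above it. In the 4 knockout livers 15 to 17 of the 37 genes lay below all 4 wild-type values, and 4 to 11 lay above them. The matching shares over all genes are not given here, so these counts have no background beside them. Set in the same way against the 3 other controls, single wild-type livers had 5 to 13 genes below and 5 to 14 above, a comparison with a narrower range because 1 array fewer defines it. The SD among knockout mice exceeded that among wild-type mice for 67.6% of the antioxidant genes and for 58.8% of all genes.

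**Figure D3:**
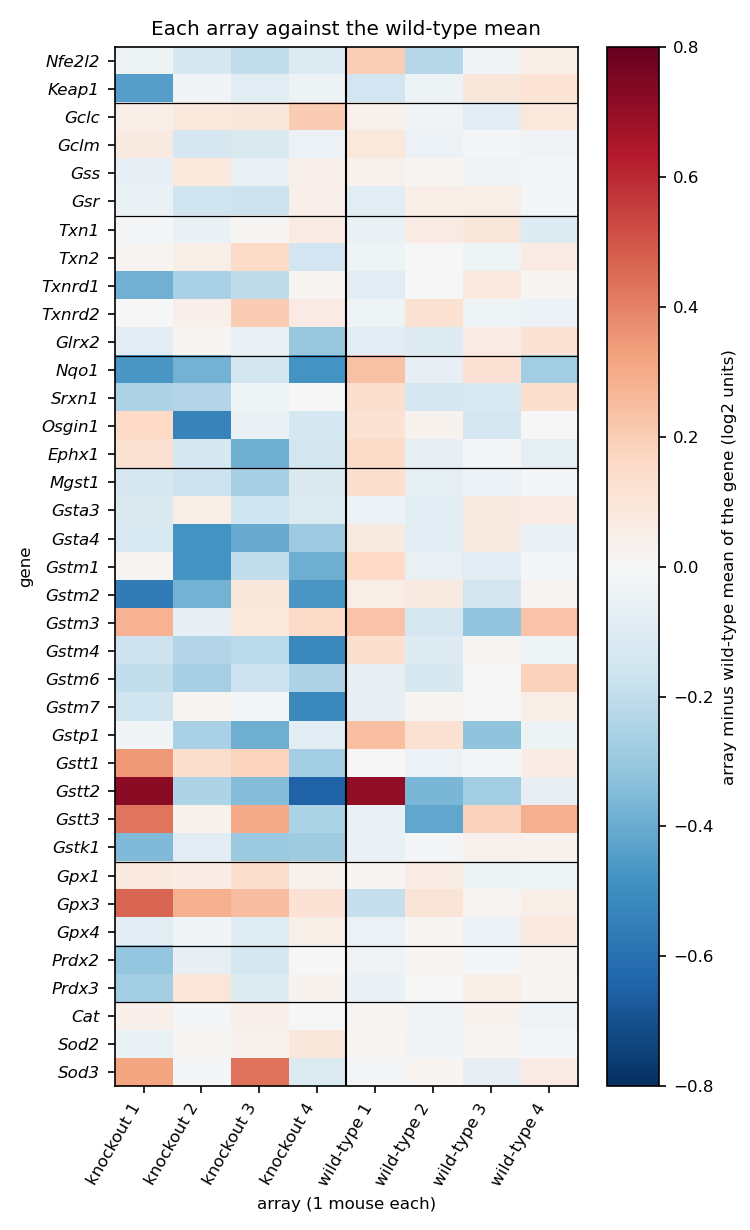
Value of each array minus the mean of the 4 wild-type arrays, in log2 units, for the 37 genes (rows, ordered by role) and 8 mice (columns). Blue cells prevail among the transferases of the knockout mice, and Gstt2 is high in mouse 1 of both groups, at 9.30 and 9.29.

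NRF2 acts through the antioxidant response element, and the sequences that carry its core in the promoters of the measured genes are shown to let them be compared. The core searched was TGACNNNGC, on both strands, in RefSeq windows from 250 bases before to 50 bases after each start site (assembly GRCm38.p6). Of the 41 genes 35 had a window, and 8 of these (22.9%) held a match, against 14% of all genes in the table. Per window the shares were 16% and 12.4%. A match describes letters and not a bound site. The 7 measured genes with a match are given on the strand that reads the core 5′ to 3′, with the core in capitals and 10 bases on either side.
Gclm: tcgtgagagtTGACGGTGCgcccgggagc
Txnrd1: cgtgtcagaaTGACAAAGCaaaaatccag
Mgst1: ccccgcctccTGACCGTGCcaagccccgc
Gsta3: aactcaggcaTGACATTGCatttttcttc
Nfe2l2: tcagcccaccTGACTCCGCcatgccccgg
Gstm7: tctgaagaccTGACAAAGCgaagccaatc
Srxn1: tgtctcactcTGACCTAGCtgcccactgc
They lie at chr3:122245413-122245441 (minus strand shown) for Gclm, chr10:82859104-82859132 (minus) for Txnrd1, chr6:138140461-138140489 (minus) for Mgst1, chr1:21240454-21240482 (plus) for Gsta3, chr2:75704885-75704913 (minus) for Nfe2l2, chr3:107931725-107931753 (minus) for Gstm7 and chr2:152105542-152105570 (minus) for Srxn1. The core begins 134, 92, 56, 121, 240 and 129 bases before the start site for the first 6, counted in the direction of the gene, and at base 29 after it for Srxn1. Txnrd1 and Gstm7 share the core TGACAAAGC. The eighth match, in Prdx1, overlapped the AP-1 motif TGACTCA, and this gene was not measured.

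The 7 genes with a match had differences of -0.21 to -0.05, all negative, with a median of -0.13. Among the 25 measured genes with a window and no match, 15 differences were negative and the median was -0.06. None of either passed the threshold. A gene without a match lacks the core only in the windows searched, and sequence farther from the start site was not read.

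The regulators themselves were close between groups. Nfe2l2 stood at 11.04, 10.95, 10.88 and 10.97 in knockout mice 1 to 4 and at 11.28, 10.85, 11.06 and 11.13 in wild-type mice 1 to 4. All knockout values fell inside the wild-type range, and the difference was -0.12 ± 0.10 (SE, 95% interval -0.33 to 0.09, adjusted p = 0.55 by limma). Keap1, the adaptor that delivers NRF2 to an E3 ubiquitin ligase, stood at 8.11, 8.53, 8.46 and 8.51 in knockout and 8.40, 8.51, 8.64 and 8.66 in wild-type mice. Knockout mouse 1 was the lowest of the 8 arrays, the others overlapped, and the difference was -0.15 ± 0.11 (adjusted p = 0.517 by limma). A second, dimmer Keap1 probe set lay the other way, at 0.10. NRF2 is controlled mainly as a protein, which these arrays do not measure.

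Among the 4 genes grouped here as NRF2 targets and not placed under another role, Nqo1 had the largest difference. It encodes a reductase that turns quinones into hydroquinones. Its values were 7.16, 7.25, 7.48 and 7.15 in knockout mice and 7.86, 7.56, 7.74 and 7.35 in wild-type mice 1 to 4. The groups overlapped only in that wild-type mouse 4 lay below knockout mouse 3. The difference was -0.36 ± 0.12 (95% interval -0.62 to -0.10, or 64.9% to 93.0% of the wild-type level), with an adjusted p of 0.166 by limma. It was -0.54 against the controls with Cre and -0.19 against those without. Controls with Cre and 1 floxed allele averaged 7.80 and Cre-free controls 7.46, which differed by 0.34 ± 0.14 (unadjusted p = 0.0349, adjusted p = 1 by limma).

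That was the single gene of the 37 with an unadjusted p under 0.05 between the 2 kinds of control (2.70%, against 3.03% of all genes), and neither among them nor among all genes did any pass after adjustment (0% of genes tested).

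Of the other genes in that group, Srxn1, which reduces overoxidised peroxiredoxins, differed by -0.13. Osgin1, an oxidative stress-induced growth inhibitor, differed by -0.14, and Ephx1, microsomal epoxide hydrolase, by -0.14. Their adjusted p lay between 0.536 and 0.618 (limma). Knockout mouse 2 was the lowest array for Osgin1 at 11.54, the 3 other knockout mice lying between 11.93 and 12.23 beside 11.93 to 12.19 in wild-type livers. For Ephx1 it was knockout mouse 3, at 11.35 beside 11.66 to 11.89 in wild-type livers. Knockout mice 2 and 4, at 11.61 and 11.59, also lay below every wild-type value, and knockout mouse 1, at 11.86, lay among them.

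Genes that make and recycle glutathione lay close to 0, Gclc on the higher side. Gclc, the catalytic subunit of the rate-limiting glutamate-cysteine ligase, stood at 12.27, 12.30, 12.31 and 12.42 in knockout and at 12.25, 12.19, 12.13 and 12.30 in wild-type mice. The groups overlapped through wild-type mouse 4, and the difference was 0.11 ± 0.07 (95% interval -0.05 to 0.27, adjusted p = 0.49 by limma). The modifier subunit gene Gclm differed by -0.05 ± 0.08. Glutathione synthetase, Gss, had means of 9.32 in both groups, its SD being 0.07 in knockout and 0.03 in wild-type mice. Glutathione reductase, Gsr, which regenerates glutathione with NADPH, differed by -0.09 ± 0.08. The upper bounds of these 4 genes were 0.27, 0.11, 0.15 and 0.09.

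The thioredoxin genes did not separate the groups. Txnrd1, the cytosolic thioredoxin reductase and an NRF2 target, stood at 9.86, 9.98, 10.04 and 10.26 in knockout and 10.16, 10.24, 10.32 and 10.25 in wild-type mice. Knockout mouse 4 lay among the controls and the other 3 below them, giving a difference of -0.21 ± 0.09 (adjusted p = 0.286, and 0.127 without that mouse, the lowest of 0.127 to 0.597 over the alternatives, by limma). The mitochondrial reductase gene Txnrd2 differed by 0.08 ± 0.08. Cytosolic thioredoxin, Txn1, and mitochondrial thioredoxin, Txn2, differed by 0.00 ± 0.07 and 0.01 ± 0.08, and both were on the negative side when arrays were centred on their medians. The glutaredoxin gene Glrx2 differed by -0.11 ± 0.09.

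**Figure D4:**
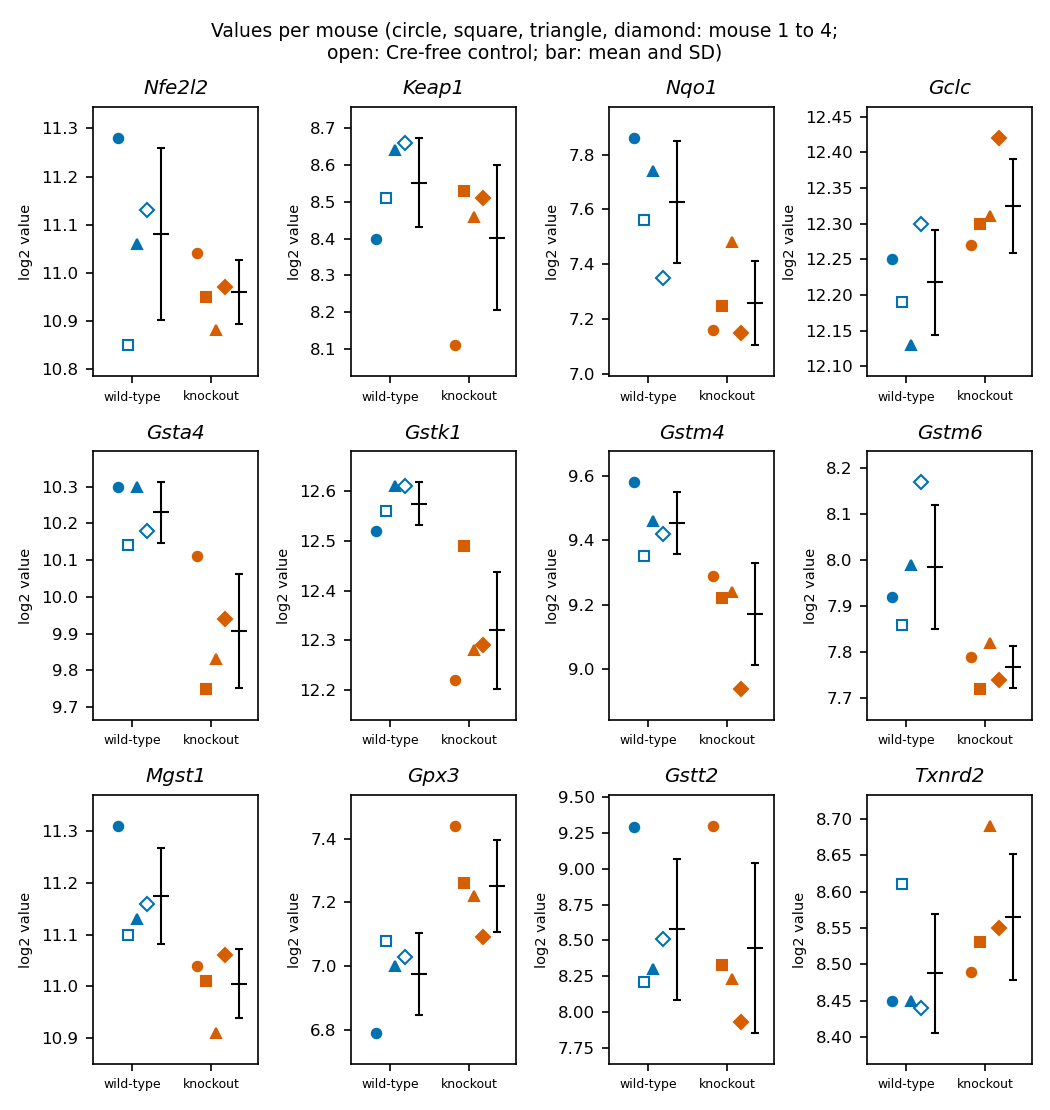
Log2 values of 12 genes in each mouse, with a symbol for each mouse number, open symbols for Cre-free controls and a bar for the mean and SD of 4 mice; each panel has its own scale. In Gsta4, Gstk1, Gstm4, Gstm6 and Mgst1 all knockout values lie below all wild-type values, in Gpx3 above, and in Gstt2 mouse 1 stands near 9.3 in both groups.

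Glutathione transferases, which attach glutathione to electrophiles, held most of the lower values. None of the 14 measured genes passed, 11 had negative differences (78.6%, against 55.5% of the brighter genes), and the median of the 14 was -0.181. Gsta4, an alpha-class enzyme with activity toward the lipid peroxidation product 4-hydroxynonenal, stood at 10.11, 9.75, 9.83 and 9.94 in knockout and at 10.30, 10.14, 10.30 and 10.18 in wild-type mice. The groups did not overlap, knockout mouse 1 coming within a narrow gap of wild-type mouse 2. Its difference was -0.32 ± 0.09, or 80.1% of the wild-type level (95% interval 69.6% to 92.1%, adjusted p = 0.122 by limma, 0.0717 to 0.472 over 20 alternative settings).

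Gstk1, the kappa-class enzyme of mitochondria and peroxisomes, stood at 12.22, 12.49, 12.28 and 12.29 in knockout and at 12.52, 12.56, 12.61 and 12.61 in wild-type mice. The control values lay close together, with an SD of 0.04, and knockout mouse 2 came nearest to them. Its difference was -0.25 ± 0.08 (adjusted p = 0.151 by limma), and it came closest of all 37 genes to the threshold under any alternative setting, at an adjusted p of 0.0576 with a trended robust variance (limma, 0.0576 to 0.483 over the alternatives). Mgst1, a membrane-bound transferase of the endoplasmic reticulum and outer mitochondrial membrane, stood at 11.04, 11.01, 10.91 and 11.06 in knockout and 11.31, 11.10, 11.13 and 11.16 in wild-type mice. The groups were separated by a gap smaller than either SD (0.07 and 0.09), and the difference was -0.17 ± 0.08 (adjusted p = 0.293 by limma).

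The mu-class genes lie side by side on chromosome 3 in the order Gstm5, Gstm7, Gstm6, Gstm3, Gstm2, Gstm1 and Gstm4 (assembly GRCm38.p6) and resemble each other in sequence, so a probe set of 1 gene may also take signal from another. Of the 6 in the list 5 had negative differences and Gstm3 a positive one, 4 of the 5 at an unadjusted p under 0.05, and none passed after adjustment. Gstm4 stood at 9.29, 9.22, 9.24 and 8.94 in knockout and 9.58, 9.35, 9.46 and 9.42 in wild-type mice. All knockout values lay below, mouse 4 farthest, and the difference was -0.28 ± 0.09 (adjusted p = 0.181 by limma). Gstm6 stood at 7.79, 7.72, 7.82 and 7.74 in knockout and 7.92, 7.86, 7.99 and 8.17 in wild-type mice. Again no values overlapped, and the difference was -0.22 ± 0.08 (adjusted p = 0.23 by limma). Gstm2 differed by -0.33 ± 0.13 and Gstm1 by -0.26 ± 0.11. Knockout mouse 3 carried the highest Gstm2 value of all, 9.62, while the other knockout mice lay at 8.97 to 9.15. Without that mouse the Gstm2 difference was -0.466, with an adjusted p of 0.0604 (limma, 0.0604 to 0.6 over the alternatives). Gstm7 differed by -0.17 ± 0.11, with knockout mouse 4 lowest at 10.35, and Gstm3 by 0.11 ± 0.13.

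The upstream sequences of Nqo1 and Gstm2, the 2 genes of largest difference, are shown because neither holds the antioxidant response core in these 250 bases, read here in the direction of the gene. That says only that these letters are not in this window.
Nqo1: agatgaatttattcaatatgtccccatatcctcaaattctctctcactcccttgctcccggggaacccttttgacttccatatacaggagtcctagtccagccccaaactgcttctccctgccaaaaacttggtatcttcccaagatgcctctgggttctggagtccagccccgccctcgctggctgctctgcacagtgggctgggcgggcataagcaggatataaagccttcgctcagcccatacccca
Gstm2: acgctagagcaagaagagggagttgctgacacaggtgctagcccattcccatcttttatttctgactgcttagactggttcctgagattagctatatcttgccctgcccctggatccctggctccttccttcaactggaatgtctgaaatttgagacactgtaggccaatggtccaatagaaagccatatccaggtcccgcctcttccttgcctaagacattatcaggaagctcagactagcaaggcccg
The first is chr8:107403206-107403455 and the second chr3:107986421-107986670, both on the minus strand of GRCm38.p6.

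The remaining transferases were spread on both sides of 0. Gstp1, the pi-class enzyme, differed by -0.19 ± 0.13 and Gsta3 by -0.08 ± 0.08. Of the theta class, Gstt1 differed by 0.10 ± 0.12 and Gstt3 by 0.13 ± 0.17. Gstt2 is described here because of its pattern across mice, noticed after its values were seen. It stood at 9.30, 8.33, 8.23 and 7.93 in knockout and at 9.29, 8.21, 8.30 and 8.51 in wild-type mice. Mouse 1 of each group was the highest, and the other 6 lay between 7.93 and 8.51. The same 2 mice stood apart in clock-controlled genes: Dbp was 9.66 and 9.86 in them and 6.87 to 7.33 in the others, and Nr1d1 was 11.32 and 11.36 beside 8.16 to 9.77. Whether the time of dissection has a part in Gstt2 was not tested, since no label gives it. The Gstt2 difference was -0.13 ± 0.29 with all arrays and -0.17 ± 0.13 without the pair (SE).

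Peroxide-removing enzymes were near 0, with 1 exception. Gpx3, a glutathione peroxidase that is secreted into plasma, stood at 7.44, 7.26, 7.22 and 7.09 in knockout and 6.79, 7.08, 7.0 and 7.03 in wild-type mice. Every knockout value lay above every control, the lowest of them by a gap much smaller than the SDs of 0.15 and 0.13. Its difference was 0.28 ± 0.10, or 121% of the wild-type level (95% interval 105% to 140%, adjusted p = 0.191 by limma), and it was 0.15 ± 0.09 without mouse 1 of both groups. Gpx1, the cytosolic and mitochondrial form, differed by 0.07 ± 0.07 and Gpx4, which reduces lipid peroxides in membranes, by -0.04 ± 0.07. The peroxiredoxins Prdx2 of the cytosol and Prdx3 of mitochondria differed by -0.13 ± 0.08 and -0.06 ± 0.09, knockout mouse 1 being lowest for both at 9.27 and 10.97.

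Catalase and mitochondrial superoxide dismutase varied little among mice and between groups. Cat, which removes hydrogen peroxide in peroxisomes, ranged from 13.49 to 13.54 in knockout and from 13.47 to 13.53 in wild-type livers. Its values lay near the highest value deposited for any probe set, 13.88. Sod2, which converts superoxide in the mitochondrial matrix, ranged from 12.17 to 12.31 and from 12.20 to 12.24. The differences of these genes were 0.02 ± 0.07 each, with 95% intervals of -0.12 to 0.17 for Cat and -0.13 to 0.17 for Sod2, and both were on the negative side when arrays were centred on their medians. Extracellular superoxide dismutase, Sod3, differed by 0.16 ± 0.12, knockout mice 1 and 3 lying at 9.69 and 9.81 and mice 2 and 4 at 9.37 and 9.27, beside 9.31 to 9.44 in wild-type livers.

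Beyond the list, 92 further genes of the same pathways were measured, of 104 listed. Of these 2 rose (Ugdh and Idh2), 2 fell (Aox1 and Ccs) and 88 did not pass. In both directions together 4.35% were called, against 1.15% of all genes and 1.72% of the brighter ones. Among all genes 0.433% were higher and 0.717% lower. The median difference of the 92 genes was -0.06. These lists were written with earlier results of the same arrays known.

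Aox1, an aldehyde oxidase gene that NRF2 can induce, fell in the knockout. It stood at 9.42, 9.03, 8.98 and 9.10 in knockout and 9.78, 9.57, 9.67 and 9.79 in wild-type mice, a difference of -0.57 ± 0.11, or 67.2% of the wild-type level (adjusted p = 0.0312 by limma). Ugdh, which makes UDP-glucuronic acid for conjugation and is also on the NRF2 target list, rose, from 10.94, 10.80, 10.91 and 10.81 to 11.20, 11.17, 11.21 and 11.35. That is a difference of 0.37 ± 0.08 (adjusted p = 0.0472 by limma). The 22 measured genes of this target list thus gave 1 call in each direction and 20 that did not pass, with a median of -0.118.

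Idh2, the mitochondrial isocitrate dehydrogenase that makes NADPH, rose by 0.38 ± 0.07, the 4 knockout mice lying at 11.69 to 11.75 and the controls at 11.23 to 11.40 (adjusted p = 0.0334 by limma). None of the 7 other NADPH-supplying genes measured passed. Ccs, the copper chaperone that loads superoxide dismutase 1, fell, from 11.09, 10.97, 11.01 and 10.92 to 10.06, 10.69, 10.11 and 10.52, a difference of -0.65 ± 0.13 (adjusted p = 0.0483 by limma). It was the single call among 27 other peroxidase and thiol genes.

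These 4 calls were close to the threshold. With the 8 arrays left out in turn, Aox1 passed only without knockout mouse 1 and Ccs only without knockout mouse 2, while Ugdh and Idh2 never passed. The adjusted p then reached 0.0923, 0.122, 0.126 and 0.105 (limma).

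**Figure D5:**
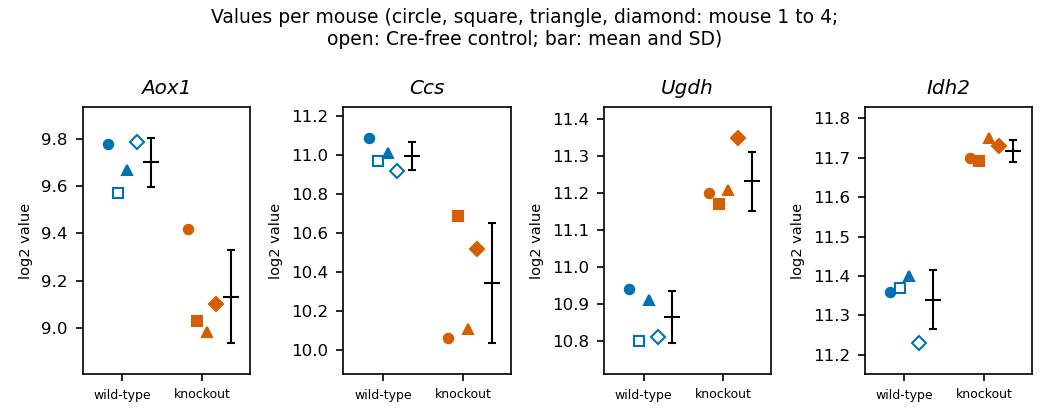
Log2 values in each mouse of the 4 further pathway genes past the threshold, with symbols for mouse number, open symbols for Cre-free controls and a bar for mean and SD of 4 mice; each panel has its own scale. Aox1 and Ccs lie lower and Ugdh and Idh2 higher in all knockout mice, the knockout values of Ccs spreading from 10.06 to 10.69.

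None of 25 measured genes of glutathione supply and breakdown passed. Oplah, the 5-oxoprolinase of glutathione breakdown, came nearest, with knockout values of 9.48 to 9.57 below wild-type values of 9.74 to 9.91. Its difference was -0.34 ± 0.07 (adjusted p = 0.052 by limma), and it passed under 4 of the 20 alternative settings. None of 10 genes that regulate NRF2 passed, the lowest adjusted p being that of the small Maf partner Maff, 0.292 (limma), at a difference of 0.23 ± 0.10.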

How the data were processed

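The authors deposited log2 expression values computed by RMA. The submitters' processing notes name oligo version 1.24 for this step. The log2 scale was inferred from the range of 1.28 to 13.88. The chip definition is not given in the sources used here, nor is the genome build. RMA brings the distributions of the arrays close together, so differences are relative to all other probe sets. The deposited distributions were not equal, with array medians of 5.79 to 5.89. Renewed quantile normalization moved the list's median difference from -0.106 to -0.0651.

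Of 39137 probe sets, 23521 had 1 gene symbol in the platform annotation, 1814 several and 13802 none. The probe set of highest mean stood for a gene, leaving 22180. Limma version 3.58.1 (lmFit, then eBayes) under R version 4.3.3, with no term but the group and two-sided p-values, was fitted across all of them, with Benjamini-Hochberg adjustment and a threshold of 0.05, after the step was tested on simulated data. Errors are limma SEs, and intervals cover 95% for a single gene. A fit with 3 groups compared the control classes (2 mice each). Brighter genes are those above the median gene.

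The 41 genes, the other lists and the 20 alternative settings were chosen with earlier results of these data known. Every measured gene of the list is named. All 8 values are given where groups did not overlap and for Nfe2l2, Keap1, Nqo1 and Gclc, and for Txnrd1 and Gstt2, which were chosen after their values were seen. From each other list up to 3 called genes of smallest adjusted p are named, or else the 1 of smallest. Promoters came from RefSeq. Each array is 1 mouse, and no label gives sex, litter, scan date or dissection time. Mouse numbers do not pair the groups. Figures were drawn with Python version 3.11.15, pandas version 2.3.3 and matplotlib version 3.10.9.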

Additional observations from a re-analysis of the deposited data

Results flagged for a closer look

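By Dixon's criterion for 4 values, 6 arrays stood apart from the rest of their group, among 108 groups of 54 genes named in the text: the 37 antioxidant genes, other pathway genes, Sco1, Gpnmb and the clock and Y-linked genes. Chance flags about 1 in 20 groups. Among the antioxidant genes there was 1. Txnrd2, the mitochondrial thioredoxin reductase, was 8.61 in wild-type mouse 2 and 8.44 to 8.45 in the 3 other controls. Without that mouse the difference between groups was 0.12 in place of 0.08.

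The clock-controlled gene Dbp was 9.66 in knockout mouse 1 beside 6.87 to 7.33 in the 3 other knockout mice, and 9.86 in wild-type mouse 1 beside 7.08 to 7.33 in the 3 other controls. Of the Y-linked genes, Kdm5d was 7.37 in knockout mouse 4 beside 8.54 to 8.72, and Uty was 7.23 beside 8.48 to 8.72. Gpnmb was 5.25 in wild-type mouse 4 beside 5.51 to 5.57, and its difference was 1.16 without that mouse in place of 1.23.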

How the results depend on the processing

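No gene of the antioxidant list passed under any of the 20 alternative settings, the lowest adjusted p being 0.0576, and 28 of 37 kept the sign of their difference throughout; Cat, Gpx4, Gss, Gstt2, Gstt3, Prdx3, Sod2, Txn1 and Txn2 did not. The list's median (-0.106) was -0.0651 with renewed quantile normalization, -0.138 with arrays centred, -0.0725 with the Y-linked level as a covariate, -0.0688 against Cre-free controls, -0.0828 without both mouse 1 arrays, and -0.12 to -0.0542 with 1 array left out. Of the other pathway genes, where 2 rose and 2 fell, none rose (0) and 0 to 1 fell with 1 array left out; 0 and 0 passed with all probe sets tested, with the Y-linked covariate and against Cre-free controls, and 0 and 1 with mouse number as a replicate block, against Cre-carrying controls and without both mouse 1 arrays. With arrays centred 0 rose, and with renewed quantile normalization 1 fell. The causes were not tested. Of the same-numbered pairs only mouse 1 deviated together (correlations of 0.27, -0.02, 0.03 and -0.10 for numbers 1 to 4), so the block is given only here. Over all genes, 96 rose and 159 fell; the counts were 159 and 300 with a trended robust variance, 123 and 319 among brighter genes, 131 and 245 with array weights, 60 and 230 with arrays centred (20.7% higher in place of 37.6%), 45 and 106 with the Y-linked covariate, 13 and 20 with all probe sets, 7 and 9 against Cre-free and 4 and 2 against Cre-carrying controls, 28 and 37 without both mouse 1 arrays, and 29 to 65 and 60 to 119 with 1 array left out. Between the control classes no listed gene passed under any setting tried. Precision is limited by 4 mice per group.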

Other observations

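Several pathway genes outside the antioxidant list, chosen after their values were seen, separated the groups without passing the threshold. Of the 92 measured, called ones included, 4 (4.35%) had all knockout values above, against 5.26% of all and 4.45% of the brighter genes. All knockout values lay below for 11 (12%), against 5.49% of all and 9.50% of the brighter genes. Slc3a2, the heavy chain of cystine and amino acid exchangers, lay at 11.16 to 11.63 in knockout and 10.84 to 11.07 in wild-type livers, a difference of 0.43 ± 0.11 (adjusted p = 0.0769 by limma, 0.0385 to 0.406 over 20 alternative settings, of which 2 passed). Glo1, which clears methylglyoxal with glutathione, lay at 11.03 to 11.35 and 11.41 to 11.57, a difference of -0.32 ± 0.09 (adjusted p = 0.109 by limma). Aldh3a2, a fatty aldehyde dehydrogenase, differed by -0.36 ± 0.10 (adjusted p = 0.125 by limma), again with no overlap.

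Selenow, a small selenoprotein, varied among knockout mice more than among controls. It stood at 11.00, 10.51, 10.70 and 10.21 in knockout mice 1 to 4, beside 10.15 to 10.29 in wild-type mice. Knockout mouse 4 lay inside the control range and the other 3 above it. The difference was 0.39 ± 0.14, with an adjusted p of 0.201 (limma) and of 0.0665 without mouse 4 (0.0665 to 0.521 over the alternatives), which was also the mouse with the low Y-linked level.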
